A study of Mus musculus with 4 samples.

Results

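The cadherin superfamily genes compared here are the autosomal genes whose array name is a Cdh number, a Pcdh name, Dsc1 to Dsc3 or a Dsg name, and they were followed in mouse intestine at 32 months and at 3 months of age. That rule took 94 of the 17818 gene names on the arrays, with 471 of the 83122 non-control probes. The genes were 14 classical cadherins (5 of type I and 9 of type II), 5 other cadherins, 8 desmosomal cadherins, 9 non-clustered protocadherins and 58 clustered protocadherins of the Pcdha, Pcdhb and Pcdhg families. The rule takes genes by name and not by a measured value, but it was set with earlier results of these data known.

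DNA of C57BL/6 mouse intestine was hybridised to 2 arrays that read 2 colours each, of which the first covers chromosomes 1 to 8 and the second chromosomes 9 to 19, X and Y. On both arrays the 32-month DNA carried Cy5 (red) and the 3-month DNA carried Cy3 (green), with 1 sample per age and array. Both samples are called wild type in a header line of the array for chromosomes 1 to 8. The labels give no further treatment or allele, and they do not state the sex, the gut segment or how many mice each DNA sample holds.

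Without replicate mice or a dye swap, no difference below has a test, and a difference between ages cannot be told apart from one between dyes or between these 2 DNA samples. The step that selected methylated DNA for hybridisation is not described in the labels or headers, so values are called signals, not methylation levels. In DNA of a whole tissue, a different share of cells and a different signal per cell cannot be told apart. DNA holds no transcript level, so the tissue label could not be checked against marker genes. Spots of the same control probe, printed repeatedly on an array, had ratios with an SD of 0.26 on the log2 scale on the first array (88 spots) and 0.19 on the second (93 spots). This is the spread between spots within 1 hybridisation at their own brightness. Their median signals at 32 and 3 months were 174 and 198 units on the first array and 464 and 562 units on the second.

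Cadherins are calcium-dependent adhesion molecules that bind their like on the next cell. Classical cadherins join their cytoplasmic tails to catenins and the actin cytoskeleton at adherens junctions, desmosomal cadherins anchor keratin filaments through plakoglobin and plakophilins, and protocadherins carry other tails and are best known from neurons. The clustered protocadherins lie side by side on chromosome 18, each variable exon has its own promoter, and in neurons the choice among these promoters goes with their DNA methylation and the binding of CTCF. In human gastrointestinal tumours, PCDH10, PCDH17 and CDH13 are known for methylated promoters.

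The signal difference of a probe is given as log2 of the 32-month over the 3-month processed signal, minus the median of its array, so 0 is the array's midpoint and 1 is a 2-fold higher signal at 32 months. A probe was usable when its signal stood well above background at 1 age or both and carried no outlier mark. A region is a run of probes of 1 gene name at most 1000 bases apart, and where at least 2 of them were usable, their median is the region's value. A region is called higher when that median is at least 1 and every usable probe is above 0, and called lower in the mirrored case.

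Of 109 regions of these genes, 71 were measured, in 70 of the 94 genes. The 38 unmeasured regions had 0 usable probes (7 regions) or 1 (31 regions), and 34 of them were clustered protocadherins. At 32 months 2 measured regions were called higher, those of Cdh11 and Cdh13, and none was called lower. Over all 14835 measured autosomal regions, 1.83% were called higher and 0.586% were called lower. The 70 measured genes had a median of 0.02 (range -0.87 to 1.59), against 0.0017 over all 13922 measured autosomal genes.

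Single probes were also counted, since a region can hold raised and unraised probes. Among the 283 usable probes of these genes, 37 (13.1%) were at least 2-fold higher at 32 months, against 6.00% of all usable autosomal probes. At least 4-fold higher were 11 of them (3.89%), against 1.94% of all autosomal probes. At least 2-fold lower were 11 (3.89%), against 3.50%. Neighbouring probes of a gene share DNA, so these probes are not independent of each other. In 8 of the 71 regions at least 2 neighbouring usable probes were both 2-fold higher, namely in Cdh3, Cdh13, Dsc1, Dsc3, Pcdh10, Pcdh17, Pcdhac1 and Pcdhb17, against 4.02% of autosomal regions. No region had such a run of lower probes, against 1.62% of autosomal regions.

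**Figure D1:**
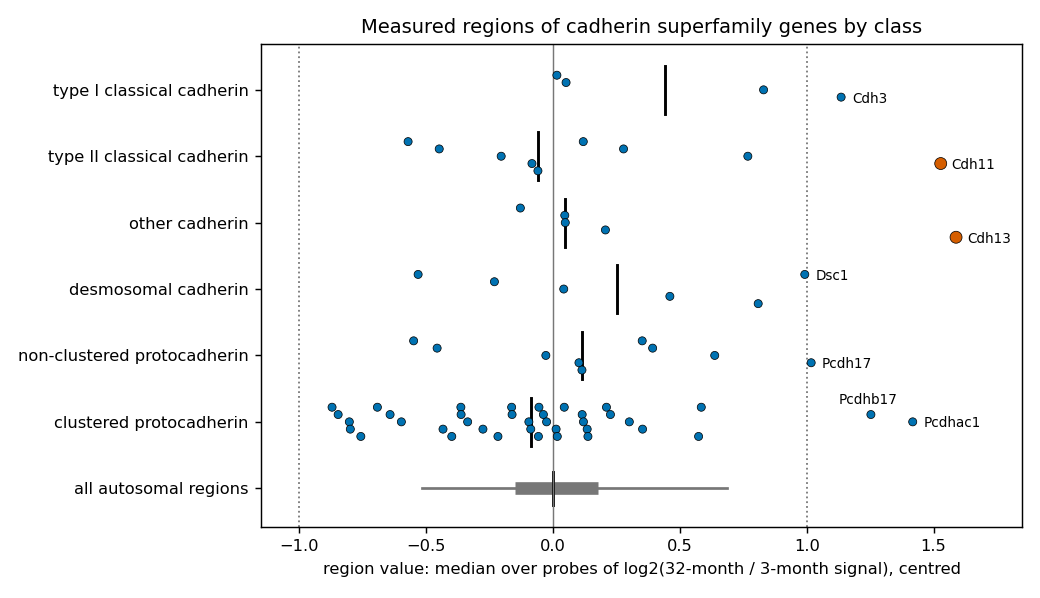
Region values of the measured genes by class, as median log2 of the 32-month over the 3-month signal, with the median over genes as a vertical bar and called regions in orange. The bottom row gives all autosomal regions (line 5th to 95th percentile, box quartiles), and only Cdh11 and Cdh13 are called, although Pcdhac1, Pcdhb17, Cdh3 and Pcdh17 also lie past 1.

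The type I classical cadherins include the epithelial adhesion molecule Cdh1 (E-cadherin), Cdh2 (N-cadherin), Cdh3 (P-cadherin), Cdh4 (R-cadherin) and Cdh15 (M-cadherin of muscle). All 4 measured values lay above 0. At least 2-fold higher at 32 months were 7 of 19 usable probes (36.8%), most of them in Cdh3, against 6.00% of all autosomal probes. None was 2-fold lower, against 3.50% of all autosomal probes. The measured genes had a median of 0.44 (range 0.02 to 1.14), and none of their regions was called.

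Cdh3 was the only type I gene with neighbouring raised probes. Some of them are printed because the difference sets in between the second probe and the third, both in the annotated promoter. Capitals mark each CG, the dinucleotide that is methylated in mammals, in these and all other probe sequences, which run 5′ to 3′ as the array files give them. Positions are those of the array design, whose genome build is not stated in the files or labels.
Cdh3 probe 2, chr8:109399396-109399448: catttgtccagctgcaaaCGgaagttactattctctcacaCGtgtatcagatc
Cdh3 probe 3, chr8:109399575-109399619: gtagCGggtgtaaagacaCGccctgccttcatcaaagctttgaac
Cdh3 probe 4, chr8:109399755-109399806: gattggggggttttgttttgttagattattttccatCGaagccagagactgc
The first 2 probes of Cdh3 had 194 and 119 units at 32 months, against 218 and 123 units at 3 months. The next 5 had 4780, 5290, 7720, 8180 and 6660 units at 32 months, against 2220, 2270, 3450, 4490 and 2850 units at 3 months. All 5 were thus higher at 32 months, by 1.86-fold to 2.38-fold, while the 2 before them were 0.91-fold and 0.99-fold. The region value was 1.14, and it was not called because those 2 probes lay below 0.

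Cdh4 differed in 1 probe inside the gene. That probe had 336000 units at 32 months, against 30400 units at 3 months, an 11.3-fold difference. The 3 usable promoter probes had 198, 548 and 644 units at 32 months, against 205, 635 and 603 units at 3 months, and stayed between 0.88-fold and 1.09-fold. The region value was therefore 0.05. The raised probe began 1211 bases after the first probe of the gene and the nearest promoter probe 587 bases after it, and both are shown.
Cdh4 probe 4, chr2:179371492-179371539: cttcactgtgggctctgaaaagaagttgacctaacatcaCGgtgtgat
Cdh4 probe 5, chr2:179372116-179372161: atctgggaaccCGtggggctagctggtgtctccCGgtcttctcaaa

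Cdh2 had 2 usable probes, both inside the gene. They read 1360 and 2930 units at 32 months, against 556 and 2440 units at 3 months, which is 2.54-fold and 1.25-fold higher and a region value of 0.83. Cdh15 had 1 promoter probe of 5 that was higher, with 818 units at 32 months against 299 units at 3 months, and a region value of 0.02. Cdh1 was not measured as a region, since 1 of its 2 probes was not above background at either age. Its other probe, inside the gene, had 9110 units at 32 months and 10500 units at 3 months (-0.18). That difference is below the SD of the repeated control spots, which were much dimmer. The probe is printed as the only reading of E-cadherin on these arrays.
Cdh1 probe 2, chr8:109492680-109492724: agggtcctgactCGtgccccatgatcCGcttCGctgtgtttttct

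Among type II classical cadherins, Cdh11, which is best known from mesenchymal cells and osteoblasts, was the called gene, while the others lay on both sides of 0. The 9 genes had a median of -0.06 (range -0.57 to 1.53). At least 2-fold higher were 5 of 36 usable probes (13.9%), against 6.00% of all autosomal probes, and none was 2-fold lower, against 3.50%. The 4 Cdh11 probes had 373000, 433, 309 and 503 units at 32 months, against 17300, 275, 64.0 and 304 units at 3 months. All 4 were higher at 32 months, by 22.0-fold, 1.61-fold, at least 4.93-fold and 1.69-fold. The third was not well above background at 3 months, so its ratio is a lower bound. The region value was 1.53 with an SD of 1.77 over the 4 probes. It was not called with the third probe left out (0.76) or after another background correction, normexp (0.17).

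Both Cdh11 probes past 4-fold are shown, and the one with the greater difference holds no CG.
Cdh11 probe 1, chr8:105673870-105673919: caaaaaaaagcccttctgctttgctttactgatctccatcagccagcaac
Cdh11 probe 3, chr8:105674862-105674920: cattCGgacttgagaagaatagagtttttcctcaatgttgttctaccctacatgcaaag

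Cdh22, a cadherin described in brain and pituitary, was the next highest of type II with a region value of 0.77. Its 3 probes had 39000, 13000 and 127 units at 32 months, against 17700, 7790 and 183 units at 3 months, so 2 were higher and 1 was lower. Its first probe was found letter for letter in the RefSeq promoter window of Cdh22, covering the transcription start. The window is printed, from 250 bases before to 50 after the start, with the probe's stretch in capitals, and it holds 38 CG on 1 strand.
Cdh22 promoter, GRCm38.p6, chr2:165234688-165234987, minus strand: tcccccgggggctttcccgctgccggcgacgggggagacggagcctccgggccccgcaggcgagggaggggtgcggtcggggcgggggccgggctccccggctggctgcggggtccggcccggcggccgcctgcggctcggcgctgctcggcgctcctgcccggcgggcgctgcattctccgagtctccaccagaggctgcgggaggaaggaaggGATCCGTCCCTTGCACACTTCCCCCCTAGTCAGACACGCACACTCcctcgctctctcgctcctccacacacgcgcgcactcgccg
Cdh5, the VE-cadherin of endothelium, had 1 probe of 5 that was 2-fold higher, with 3050 units at 32 months against 1430 units at 3 months. Its other 4 probes lay between -0.15 and 0.19, and its region value was 0.12. Cdh7 likewise had 1 raised probe of those matched to its RefSeq promoter windows (1.01) beside 3 that lay between -0.28 and -0.10. At the low end stood Cdh12 (-0.57) and Cdh24 (-0.45), neither of them past 2-fold.

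Cdh13 (T-cadherin) is held in the membrane by a lipid anchor and lacks the catenin-binding tail. It was called higher on its 2 usable probes, at the end of the promoter and just inside the gene. They read 33800 and 52600 units at 32 months, against 11900 and 17200 units at 3 months. The folds of 2.90 and 3.12 were close to each other, for a region value of 1.59 with an SD of 0.075 over probes. The other 3 promoter probes were not above background at either age, and with them in the median the value was 0.05 and not called. The other 4 genes outside the classical families had region values between -0.13 and 0.21. Cdh17 (liver-intestine cadherin), an adhesion molecule of intestinal epithelium, had 123 and 110 units at 32 months, against 149 and 113 units at 3 months, a region value of -0.13. Cdh16, the kidney cadherin, had a value of 0.05, Cdh23 of the hair-cell tip link 0.05 and Cdh26 0.21. In Cdh26, 1 promoter probe was 2.18-fold higher, with 173 units at 32 months against 81.1 units at 3 months.

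Desmosomal cadherins are expressed as desmocollins (Dsc) and desmogleins (Dsg), with Dsc2 and Dsg2 the pair of simple epithelia such as the gut. Of their 6 raised probes, 5 lay in Dsc1 and Dsc3, known from stratified epithelia, and 1 in Dsg2. The 6 measured genes had a median of 0.25 (range -0.53 to 0.99), and none was called. The raised probes were 6 of 22 usable ones (27.3%), against 6.00% of all autosomal probes. At least 2-fold lower was 1 (4.55%), against 3.50%. Dsc1 had 102, 727, 351, 1420, 2010 and 1820 units at 32 months, against 58.2, 670, 342, 545, 829 and 867 units at 3 months. All 6 probes were higher at 32 months, and the last 3, all in the promoter, were 2.18-fold to 2.70-fold higher. Its value of 0.99 fell just short of the calling threshold.

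The raised probes of Dsc3 lay inside the gene, not in its promoter. They read 1880 and 4250 units at 32 months, against 493 and 2120 units at 3 months, or 3.95-fold and 2.08-fold, while its usable promoter probes were 1.10-fold and at least 1.48-fold, the second being not above background at 3 months. Dsc2 had a region value of -0.53, but 2 of its 4 usable probes were not above background at 32 months, and it stood at 0.01 over probes above background at both ages. Dsg2 had a value of 0.46, which turned to -0.15 with its dim probes kept and to -0.10 after normexp. The 2 usable Dsg2 probes had 152 and 187 units at 32 months, against 75.1 and 215 units at 3 months, and so differed in direction.

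The non-clustered protocadherins held the probes with the greatest differences of the family. At least 4-fold higher were 6 of their 49 usable probes (12.2%), against 1.94% of all autosomal probes. At least 2-fold higher were 9 (18.4%), against 6.00%, and at least 2-fold lower were 2 (4.08%), against 3.50%. The 6 probes past 4-fold belonged to Pcdh17, Pcdh10 and Pcdh1. The 9 genes had a median of 0.11 (range -0.55 to 1.02) and no called region.

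Pcdh17 is a protocadherin known in mice from the basal ganglia, and its probes differed more inside the gene than in its promoter. Its first 4 promoter probes had 116, 431, 191 and 1200 units at 32 months, against 68.5, 557, 209 and 1310 units at 3 months. The next 3, from 814 bases after the first, had 845, 800 and 352 units at 32 months, against 429, 401 and 182 units at 3 months. The last usable 3, from 1419 bases after the first, had 1190000, 343000 and 762000 units at 32 months, against 31200, 10900 and 23500 units at 3 months. The first probe was not above background at 3 months and was at least 1.76-fold higher, and the 3 after it were 0.80-fold to 0.95-fold. The middle 3 were 2.01-fold to 2.07-fold higher and the last 3 were 32.6-fold to 39.6-fold higher.

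A further Pcdh17 probe between the last ones carried an outlier mark and was left out. It had 149000 units at 32 months and 2980 units at 3 months, a difference in the same direction (51.9-fold). The region value was 1.02, with 3 of the 4 first probes below 0. Printed are 1 probe of the promoter, 1 of the middle 3 and 2 of the last 3, since the contrast lies within 1 region.
Pcdh17 probe 4, chr14:83253256-83253305: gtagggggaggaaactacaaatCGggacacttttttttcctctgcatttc
Pcdh17 probe 6, chr14:83253710-83253769: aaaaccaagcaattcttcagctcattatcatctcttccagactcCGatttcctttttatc
Pcdh17 probe 8, chr14:83254108-83254152: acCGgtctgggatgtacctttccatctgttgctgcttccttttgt
Pcdh17 probe 9, chr14:83254298-83254342: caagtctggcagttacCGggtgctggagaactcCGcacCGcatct

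Pcdh10, known in mice for axon growth in the striatum, showed the opposite arrangement, with the raised probes farthest upstream. The first 2 had 90300 and 82200 units at 32 months, against 2850 and 6750 units at 3 months, which is 32.3-fold and 12.4-fold higher. The next 2 promoter probes had 204 and 339 units at 32 months, against 245 and 283 units at 3 months. Inside the gene, 1 of 2 usable probes had 110 units at 32 months against 56.7 units at 3 months, where it was not above background, and the other had 1180 units against 1400 units. The signal thus differed at the upstream end and stayed within 1.22-fold at the 2 promoter probes next to it, and the region value was 0.64, or 0.01 after normexp.
Pcdh10 probe 1, chr3:45473846-45473903: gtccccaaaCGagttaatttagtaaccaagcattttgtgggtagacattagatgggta
Pcdh10 probe 2, chr3:45474031-45474086: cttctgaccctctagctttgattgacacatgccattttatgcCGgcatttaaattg
Pcdh10 probe 4, chr3:45474476-45474520: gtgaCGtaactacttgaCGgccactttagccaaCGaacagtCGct
Probe 4 was found in the RefSeq promoter window of Pcdh10, starting 117 bases before the transcription start. By the array's positions the raised probe 1 began 630 bases before probe 4. The window is printed with the probe in capitals, and it holds 24 CG on 1 strand. Probe 4 holds 4 CG and was the only probe matched to this window, and it differed little (1.22-fold). The rest of the window was not read by a matched probe.
Pcdh10 promoter, GRCm38.p6, chr3:45378148-45378447, plus strand: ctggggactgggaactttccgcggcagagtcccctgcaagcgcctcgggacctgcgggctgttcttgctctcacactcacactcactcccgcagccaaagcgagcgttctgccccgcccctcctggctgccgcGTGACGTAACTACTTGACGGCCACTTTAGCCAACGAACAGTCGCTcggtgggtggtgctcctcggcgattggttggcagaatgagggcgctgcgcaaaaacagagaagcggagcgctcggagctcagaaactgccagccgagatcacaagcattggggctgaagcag

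**Figure D2:**
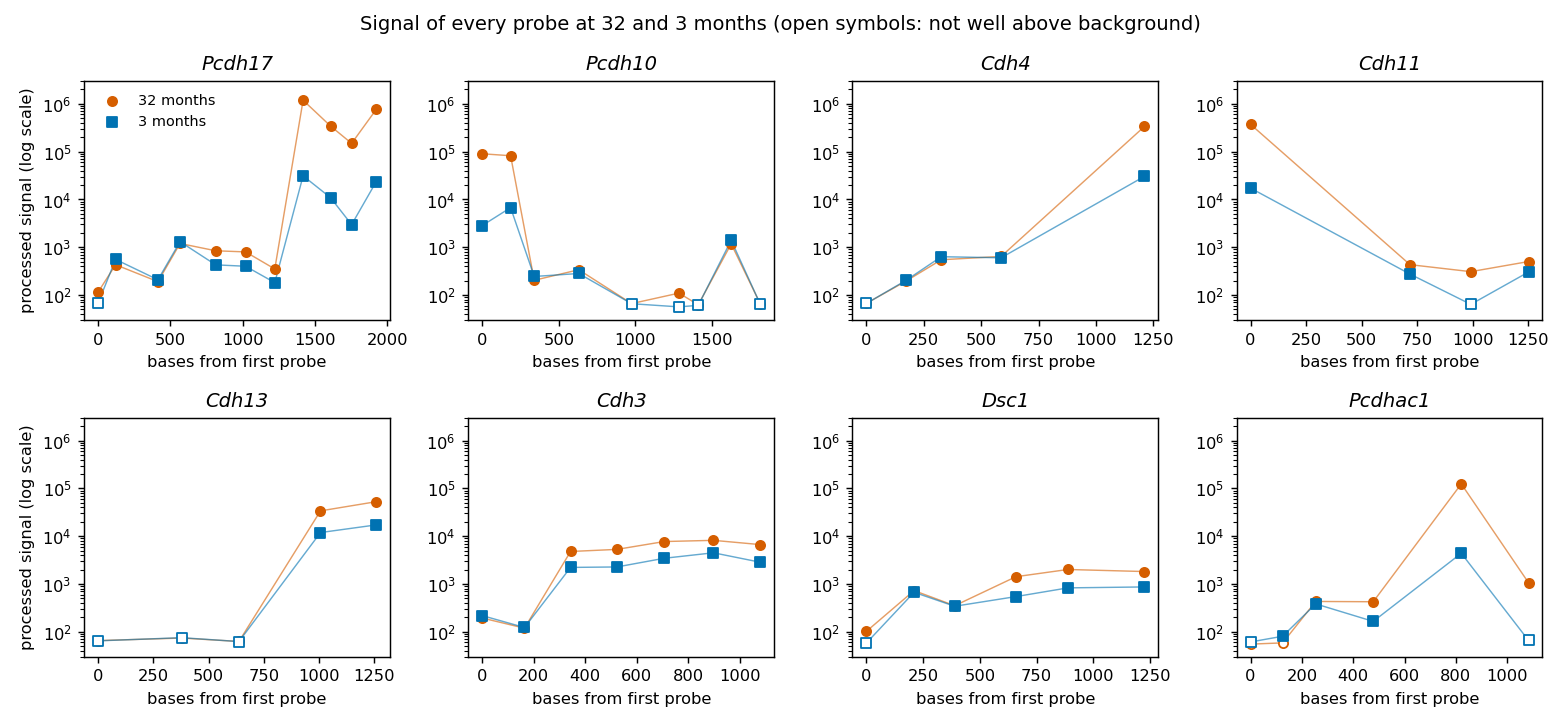
Processed signal (log scale) of every probe of 8 genes against its distance in bases from the first probe, at 32 months (orange circles) and 3 months (blue squares), with open symbols where a probe was not well above background. The Pcdh17 panel includes the outlier-marked probe, and the ages separate at 1 end of Pcdh17, Pcdh10, Cdh4 and Cdh11 by over 10-fold.

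Pcdh1, an epithelial protocadherin, had 1 raised probe in its promoter, with 924 units at 32 months against 224 units at 3 months (4.28-fold). Its other 2 probes were 1.05-fold and 1.28-fold, and the region value was 0.35. Pcdh8 had 1 probe that was 2-fold lower. That probe began 68 bases before the RefSeq start and had 5140 units at 32 months, against 11100 units at 3 months (0.48-fold), and 4 of the 5 usable probes of Pcdh8 were below 0 for a value of -0.46. Pcdh15, a protein of the hair-cell tip link, had the lowest value of the class at -0.55. Pcdh7 and Pcdh18 stood at 0.11 and 0.10, Pcdh12 of endothelium at 0.39, and the photoreceptor cadherin Cdhr1, listed on the array under its older name Pcdh21, at -0.03.

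The clustered protocadherins showed no shift towards higher signal at 32 months. Of their 58 genes 37 were measured, with a median of -0.09 (range -0.87 to 1.42), 15 regions above 0 and 23 below, and none called in either direction. At least 2-fold higher were 7 of 138 usable probes (5.07%) and at least 2-fold lower were 8 (5.80%), against 6.00% and 3.50% of all autosomal probes. The median was -0.11 over 6 measured alpha genes, -0.09 over 15 beta genes and -0.07 over 16 gamma genes.

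Pcdhac1 and Pcdhb17 stood out of their clusters. Pcdhac1, a C-type gene near the end of the alpha cluster, had 58.6, 431, 425, 124000 and 1060 units in its usable probes at 32 months, against 80.6, 383, 165, 4390 and 65.9 units at 3 months. The last 3 of these were higher, by 2.67-fold, 29.3-fold and at least 16.7-fold, the last one being not above background at 3 months. Pcdhb17 had 85.1, 3350, 5780 and 4570 units at 32 months, against 119, 1690, 2170 and 1530 units at 3 months, so that 3 of 4 probes were higher, by 1.04 to 1.63 on the log2 scale. The region values were 1.42 and 1.25, and neither was called because the first usable probe of each lay below 0. That of Pcdhac1 was 0.35 after normexp and 0.82 with its dim probe kept. The other 1 of the 7 raised probes lay in the C-type gene Pcdhgc5, with 204 units at 32 months against 105 units at 3 months. The Pcdhgc5 region stood at 0.23, the other C-type genes Pcdhac2 at -0.06, Pcdhgc3 at -0.16 and Pcdhgc4 at 0.58 and 0.01 in its 2 regions, and Pcdhb1 at 0.13.

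The lowest values of the whole family were in the clusters. Of the 8 lowest regions, Pcdhgb6 had both usable probes above background at both ages, and each of the other 7 named here had at least 1 usable probe that was not above background at 32 months. Pcdhgb6 had -0.87, Pcdhgb8 -0.85, Pcdha7 -0.80, Pcdha11 -0.80 and Pcdhgb2 -0.76. Pcdhgb4 (-0.69), Pcdhb16 (-0.64) and Pcdhb22 (-0.60) came next, each on 2 usable probes. In the measured region of Pcdhgb6 the probes had 93.4 and 794 units at 32 months, against 247 and 1080 units at 3 months, and its value was -0.11 after normexp. In Pcdha11 they had 79.1 and 56.8 units at 32 months, against 106 and 138 units at 3 months, and the second was not above background at 32 months. Over the family, the 11 probes at least 2-fold lower had a median of 58.0 units at 32 months and 152 units at 3 months, and 4 of them were above background at both ages. The 37 probes at least 2-fold higher had a median of 3350 units at 32 months and 1530 units at 3 months, and 35 of them were above background at both ages. The 11 at least 4-fold higher were bright, with a median of 124000 units at 32 months and 6750 units at 3 months. Autosomal probes at least 4-fold higher had 19300 and 2550 units.

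**Figure D3:**
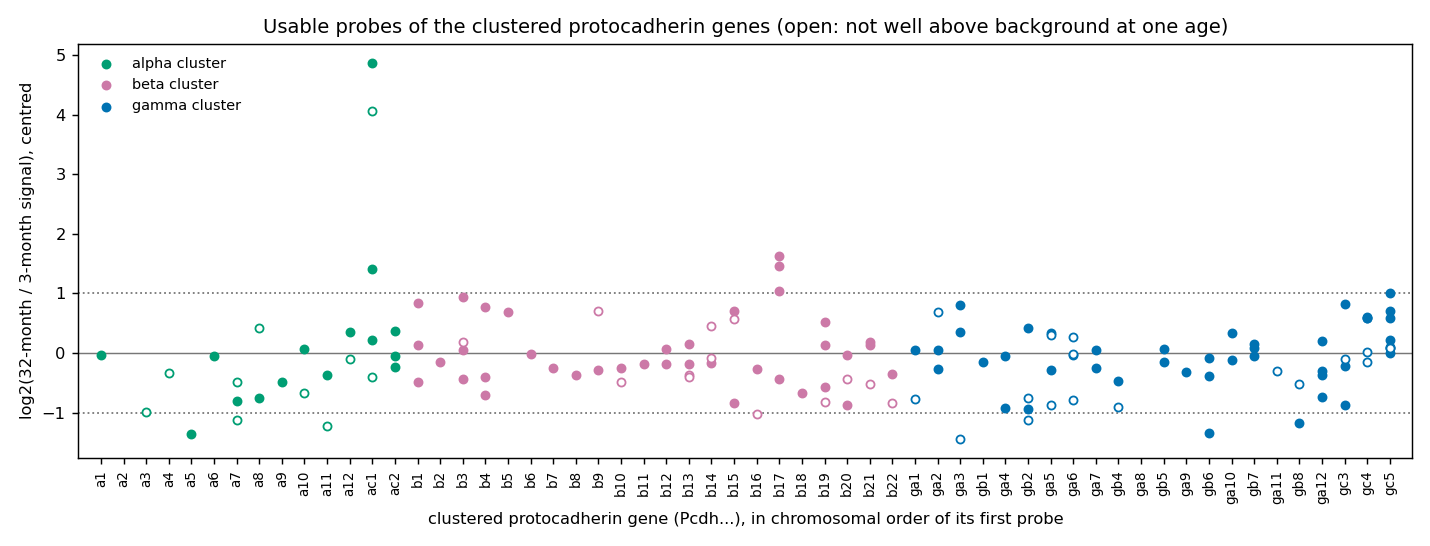
Log2 of the 32-month over the 3-month signal for each usable probe of the clustered protocadherin genes, in chromosomal order, with open symbols for probes not well above background at 1 age. Most points lie between -1 and 1, and the 3 raised probes each of Pcdhac1 and Pcdhb17 are apart from their neighbours.

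Set side by side, the 13 measured classical cadherin genes had a median of 0.05 and the 37 clustered protocadherin genes a median of -0.09, a difference of 0.14. The ranges overlapped (-0.57 to 1.53 for classical cadherins and -0.87 to 1.42 for clustered protocadherins). The share of usable probes at least 2-fold higher at 32 months was 12 of 55 (21.8%) in classical cadherins and 7 of 138 (5.07%) in clustered protocadherins. No classical probe and 8 clustered probes (5.80%) were at least 2-fold lower. Over all autosomal probes the shares were 6.00% higher and 3.50% lower.

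The classes also differed in how well they could be measured, and the part of this in the shares was not tested. Of the classical probes 79.1% were well above background at 32 months and 79.1% at 3 months. Of the clustered protocadherin probes 39.4% were above background at 32 months and 44.3% at 3 months, against 71.7% and 71.5% of all autosomal probes. A classical probe held 0.896 CG on average, a clustered protocadherin probe 0.585 and an autosomal probe 0.934. All clustered genes lie on the second array. There 7.04% of autosomal probes were at least 2-fold higher and 4.97% at least 2-fold lower, against 4.98% and 2.08% on the first array. Most classical cadherins lie on the first array, and so did every raised classical probe but that of Cdh2. The classical genes on the second array had region values of 0.83 (Cdh2), -0.08 (Cdh10), -0.57 (Cdh12) and -0.45 (Cdh24). The difference between the classes can thus hardly be told apart from one between the arrays.

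**Figure D4:**
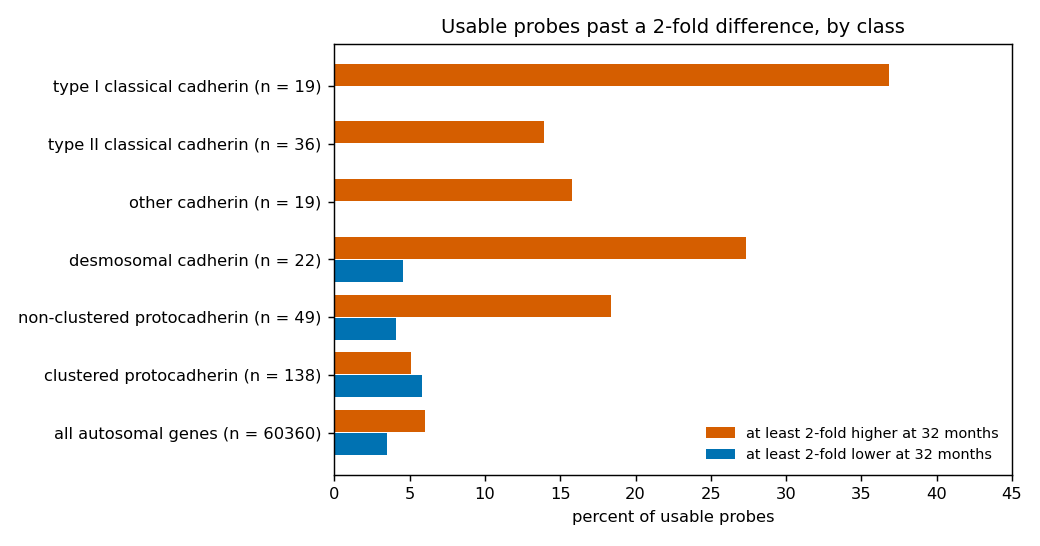
Percent of usable probes at least 2-fold higher (orange) and at least 2-fold lower (blue) at 32 months, by class, with the number of usable probes in each label. The clustered protocadherins are near the autosomal share of higher probes and the 5 other classes are above it, with 19 to 49 probes in each of these.

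Among these probes, CG content was highest in those at least 4-fold higher and lowest in those at least 2-fold lower. The 11 probes at least 4-fold higher held 1.82 CG on average (median 2). All 37 at least 2-fold higher, which include these 11, held 1.16 (median 1). The 235 probes between -1 and 1 held 0.868 (median 1), and the 11 probes at least 2-fold lower held 0.364 (median 0). Because the group of 37 overlaps that of 11, these means do not show a steady rise over separate groups. Over all autosomal probes the same 4 groups held 1.48, 1.39, 1.06 and 1.04. The groups also differ in class. Of the 11 lower probes 8 were clustered protocadherins, a class whose probes held 0.585 CG on average. Of the 11 at least 4-fold higher 6 were non-clustered protocadherins, whose probes held 1.12. The part of class in the CG content was not tested. Of the 204 usable probes annotated to a promoter 22 (10.8%) were at least 2-fold higher, against 5.77% of autosomal promoter probes. Of the 78 inside a gene 15 (19.2%) were, against 6.52% of autosomal probes inside genes. These shares mix classes, since 106 of the 204 promoter probes and 32 of the 78 inside genes were clustered protocadherins (3.77% and 9.38% higher). In classical cadherins the share was 22.2% in promoters and 22.2% inside genes. It was 17.4% and 8.33% in those of type II, and 12.9% and 27.8% in non-clustered protocadherins. By exact sequence, 18 probes of 12 genes fell in a RefSeq promoter window of GRCm38.p6, and of the 16 usable ones only those of Cdh22 and Cdh7 named above were at least 2-fold higher.

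Genes that work with cadherins had 1 called region of 36, against 1.83% of autosomal regions called higher. Of 49 listed genes for catenins, plakophilins, other cadherin-like proteins, nectins and regulators of cadherin or protocadherin genes, 36 were on the arrays and all 36 were measured, with Cdhr1 counted both here and above. Snai1, the zinc finger repressor of the E-cadherin gene, was called higher, none was called lower and 35 were neither, with a median of 0.01 (range -1.40 to 1.47). The Snai1 region had a value of 1.20 with an SD of 0.68 over 5 probes, all above 0, and it was not called after normexp or with ratios left uncentred. Twist1, another transcription factor that lowers E-cadherin, had the highest value (1.47) with probes between -0.19 and 5.07, so it was not called. Snai2 and Zeb2 of the same group stood at 0.01 and 0.10. Ptpn14, a phosphatase of cell junctions, had the lowest value at -1.40. The catenin genes Ctnnb1 and Ctnnd1 stood at 0.02 and 0.0008, and Ctcf, the factor that binds clustered protocadherin promoters, at -0.36.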

How the data were processed

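Genomic DNA of mouse intestine at 32 and 3 months was hybridised to 2 arrays. Per the file headers and the submitters' processing notes, the deposited intensity values are processed signals from Agilent Feature Extraction 9.1.3.1, background-subtracted and dye-normalized by the authors. The scanner file deposited for both samples of an array was the same, so each array was read once. No replicate exists at either age, and the number of arrays limits the precision.

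Ratios were centred on the median of usable non-control probes of each array, whose values before centring were -0.03 and -0.05 on the log2 scale. Control spots and outlier-marked probes were left out, and no probe of these genes was saturated. A gene's value is the mean over its measured regions. Where a probe was not well above background at 1 age, the fold is a bound, taken against the higher of its own signal and the lowest signal well above background on that array.

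Sequences came from the probe column of the files, and promoter windows from RefSeq (GRCm38.p6). Probes were placed in a window by identical sequence, since the build of the design was not given in the sources used here. The probe sequences of Cdh13 are not reported here. Of the 94 gene names 93 were current symbols.

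Values are given for regions called higher or lower, the 10 highest and 10 lowest regions, 23 listed genes (22 on the arrays), and regions within 0.25 of the calling threshold. Others were named after their values were seen: Cdh7, Cdh15, Cdh24, Cdh26, Pcdh12, Pcdh18, Pcdh21, and among the partner genes those not called. The members, gene lists and rules were chosen with earlier results of these data known. The counts of single probes and of neighbouring raised probes were added after seeing the data.

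Of the alternatives, 7 were planned and another centring was added. The region code was tested on simulated ratios in which whole regions were shifted, with less spread over probes than Cdh11 or Pcdh17 had. Regions raised in part, such as that of Pcdh17, were not simulated. Python 3.11.15, numpy 2.4.6, pandas 2.3.3, statsmodels 0.14.6, matplotlib 3.10.9, R 4.3.3 and limma 3.58.1 were used.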

Additional observations from a re-analysis of the deposited data

How the results depend on the processing

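The count of cadherin superfamily regions called higher at 32 months was 2. It was 1 with probes dim at both ages kept (Cdh13 fell to 0.05 as its 3 dim promoter probes entered the median), 1 after normexp background correction (Cdh11 at 0.17), 1 with regions split at gaps over 500 bases (the first Cdh11 probe then stands alone), and 4 with probes above background at both ages. The 4 were Cdh13, Dsc1 (1.12), Dsc3 (1.06) and Pcdhac1 (1.42), and Cdh11 was not among them (0.76). It was 3 with loess and with centring on all non-control probes, an alternative chosen after seeing the data, where Dsc1 joined. No region was called lower under any of these settings. Across them the median of classical cadherin genes ran between 0.02 and 0.24, that of clustered protocadherin genes between -0.18 and -0.0012, and their difference between 0.02 and 0.34. Regions with few strongly raised probes depended on the median: with the mean over probes Pcdh17 was 1.88, Pcdh10 1.58 and Cdh4 0.85. Among partner genes, 0 were called higher after normexp and 0 with ratios left uncentred, and 1 was called lower with loess. The causes of these changes beyond those named were not tested. No paired analysis was possible because each age has 1 sample per array. Signals near background limit the clustered protocadherins most.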
